A study of Mus musculus with 2 samples.

Results

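Ccr7, S1pr1, Il7r, Klf2, Tcf7, Lef1, Foxo1, Bach2 and Satb1 are 9 genes of the naive and memory T cell program, and their RNA was measured in 2 libraries of cultured Th1 cells, labelled WT and Chi3l1 KO. The genes were chosen by symbol as lymph node homing receptors and transcription factors of naive and memory T cells. All 9 were listed among the 24421 genes of the tables. The study asked what the loss of chitinase 3-like 1 (Chi3l1), a secreted chitinase-like protein without enzyme activity, does to T cells, and these 9 genes bear on how far each culture had left the naive state. RNA sequencing of 1 library of WT Th1 cells (Chi3l1+/+) and 1 library of Chi3l1 KO Th1 cells (Chi3l1-/-), both on the C57BL/6J background, was analysed (n = 1 per genotype). The cells came from young adult mice. Naive CD4 T cells, isolated with a kit as CD4+CD25- cells, were stimulated through CD3 and CD28 by antibodies fixed to the plate, with IL-12, IL-2 and anti-IL-4 added, so that both libraries share the activation and the Th1 cytokines. The Chi3l1-/- genotype is not limited to T cells, and the sources used here do not say how many mice gave the RNA of a library. Libraries of naive cells were not analysed here, so the naive level of each gene is not known from these data.

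Naive and memory T cells circulate between blood and lymph nodes. They enter nodes through CCR7, which follows the chemokines CCL19 and CCL21, and leave along a gradient of sphingosine 1-phosphate sensed by S1PR1, while the IL-7 receptor sustains their survival. KLF2 drives S1pr1, FOXO1 acts upstream of Klf2 and Il7r, TCF-1 (encoded by Tcf7) and LEF-1 bind the same DNA motif, BACH2 restrains effector genes, and SATB1 organises chromatin. T cell activation and the PI3K pathway are known to lower much of this program.

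Each library has 1 deposited value per gene, taken to be log2(normalized count + 1). With the log undone, the low values stepped by 0.967 in the WT library and 0.965 in the KO library, which gives whole reads, 70784577 in the WT library and 63122181 in the KO library. Chi3l1 itself, listed as Chil1, had 1 read in the library labelled WT Th1 and 103 reads in the library labelled Chi3l1 KO Th1, a direction that goes against the labels. Every higher or lower below is therefore the library labelled KO against the library labelled WT, with no replicate and no test. Intervals in parentheses are exact Clopper-Pearson 95% intervals of the ratio of reads, which cover counting error only and not the spread between mice or cultures. Genes with at most 3 reads, a log2 value of 1.96 in either library, were treated as at the floor.

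The promoters of 4 of the genes are printed because they cover the largest changes and the range of base composition met below. They are RefSeq windows on GRCm38.p6, from 250 bases before the annotated start to 30 bases after it, read 5′ to 3′ on the strand of the gene. Capitals mark matches, on either strand, to CTTTGA (TCF/LEF), CCACCC (KLF) and GTAAACA (FOXO). TGACTCA (BACH and AP-1) was searched too and was in none of them. Lef1 and Tcf7 have several annotated starts, and the windows shown were picked for their matches. That of Lef1 belongs to a start inside the gene, downstream of its other starts.

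Klf2 (chr8:72318812-72319091, plus strand): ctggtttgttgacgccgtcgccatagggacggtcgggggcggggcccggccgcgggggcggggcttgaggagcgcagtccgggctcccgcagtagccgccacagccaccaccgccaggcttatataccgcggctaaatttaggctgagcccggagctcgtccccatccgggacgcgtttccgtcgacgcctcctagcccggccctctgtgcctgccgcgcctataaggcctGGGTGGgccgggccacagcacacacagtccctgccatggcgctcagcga

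Tcf7 (chr11:52282566-52282845, minus strand): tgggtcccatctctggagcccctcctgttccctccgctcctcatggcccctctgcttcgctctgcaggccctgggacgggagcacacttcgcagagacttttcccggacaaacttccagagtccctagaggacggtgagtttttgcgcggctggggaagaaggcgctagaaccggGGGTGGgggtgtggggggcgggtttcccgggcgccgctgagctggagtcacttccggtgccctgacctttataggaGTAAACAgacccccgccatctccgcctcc

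Lef1 (chr3:131156044-131156323, plus strand): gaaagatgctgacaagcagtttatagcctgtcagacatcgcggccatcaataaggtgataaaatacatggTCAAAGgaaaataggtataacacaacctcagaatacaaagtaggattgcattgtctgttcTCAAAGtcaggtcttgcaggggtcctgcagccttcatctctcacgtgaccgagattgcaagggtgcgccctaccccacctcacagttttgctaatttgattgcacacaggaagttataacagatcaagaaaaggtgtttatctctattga

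Il7r (chr15:9529847-9530126, minus strand): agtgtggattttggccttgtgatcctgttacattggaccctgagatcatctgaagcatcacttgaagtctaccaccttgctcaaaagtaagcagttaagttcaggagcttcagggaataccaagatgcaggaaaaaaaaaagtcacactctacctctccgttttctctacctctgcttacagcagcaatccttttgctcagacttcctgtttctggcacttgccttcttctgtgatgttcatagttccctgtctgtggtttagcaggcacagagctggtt

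The Klf2 window has 1 KLF match, written GGGTGG, that begins 19 bases before the start. The Tcf7 window holds a KLF match from 75 bases before the start and a FOXO match from 1 base after it. Lef1 has 2 TCF/LEF matches, 180 and 120 bases before the start, both written TCAAAG, and the Il7r window has 0 matches. RefSeq windows of 300 bases were at hand for 7 of the 9 genes, 15 windows in all, as several genes have more than 1 start. Among these 15, FOXO letters were in 1 (Tcf7), TCF/LEF letters in 2 (Bach2 and Lef1), KLF letters in 8 (of Klf2, Lef1, Satb1 and Tcf7) and BACH and AP-1 letters in 0. Some windows of Lef1 and of Satb1 overlap and share a KLF match, so the 8 windows are not separate promoters. Of all 32851 mouse windows of that length, 3.65% hold the FOXO letters, 16.0% the TCF/LEF letters, 31.5% the KLF letters and 5.20% the BACH and AP-1 letters. A match describes these letters and is not evidence of binding. The windows differed in composition, with a GC content of 69.3% for Klf2 and 45.7% for Il7r beside a median of 52.7% over all windows.

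The 9 genes were expressed in both libraries, from Il7r with 826 reads to Satb1 with 196396 reads in the WT library. Together they held 448373 reads in the WT library and 399826 in the KO library, which was 0.633% of all normalized counts in each. Satb1 and Ccr7 made up 68.8% of that in the WT library and 75.04% in the KO library. Per kb of the longest annotated transcript, the scale on which levels of different genes are compared here, Ccr7 led with 54840 normalized counts per kb in the WT library. It was followed by Satb1 (30420), Tcf7 (20910), Lef1 (16122), Klf2 (3160), Bach2 (1049), S1pr1 (1037), Foxo1 (631) and Il7r (226). The 4 leading genes stood at or above percentile 98.1 of the genes with a read in the WT library, and Il7r at percentile 53.0. Ccr7 was 243 times Il7r per kb in the WT library and 194 times in the KO library. Bach2 and S1pr1 were the pair of neighbours that could not be ordered in the WT library, since their counting intervals overlapped (1028 to 1070 and 1002 to 1073). In the KO library S1pr1 (998, interval 963 to 1033) was above Bach2 (797, interval 779 to 816), and the other places were the same. With the union of annotated exons as the length, Tcf7 passed Satb1 in both libraries and S1pr1 was above Bach2 in both. The plot of the 9 levels shows this spread between genes, a range wider than the shift of any of them between libraries.

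**Figure D1:**
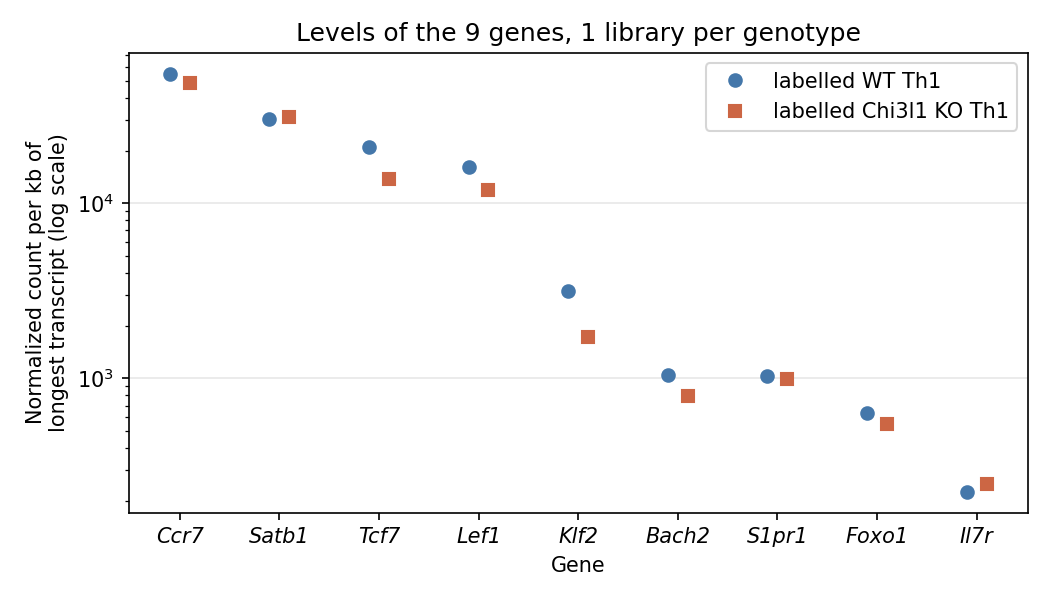
Normalized count per kb of the longest transcript (log axis) for each of the 9 genes, with a circle for the library labelled WT Th1 and a square for the library labelled Chi3l1 KO Th1, 1 library each and no error bars. Levels run from 54840 for Ccr7 to 226 for Il7r in the WT library, and the circle and square of a gene lie close together on this scale.

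The 3 receptors differed little between the libraries. Ccr7 (chr11:99144196-99155077, GRCm38, as for all gene positions), the chemokine receptor for entry into lymph nodes, had log2 values of 16.73 in the WT library and 16.56 in the KO library. The difference was -0.170 (-0.182 to -0.158), or -11.1% in normalized count. S1pr1 (chr3:115710433-115715072), the receptor for egress, stood at 11.63 and 11.57, and its difference of -0.056 was not detectable at this depth (-0.127 to 0.0155, from 3267 and 3150 reads). Scaling to Actb, to T cell identity genes or to the total without ribosomal RNA precursor turned it positive, and scaling to T cell identity genes did so for Ccr7. Il7r (chr15:9505788-9530176), the alpha chain of the IL-7 receptor, was 9.64 in the WT library and 9.80 in the KO library. It was the receptor that was higher, unless the trend described below was removed, by 0.153 (0.0154 to 0.290), from 826 and 920 reads.

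The largest differences were in the transcription factors. Klf2 (chr8:72319033-72321656), a zinc finger factor of quiescence and egress, had a log2 value of 12.51 in the WT library and 11.64 in the KO library. The difference of -0.875 (-0.937 to -0.814) came from 6035 and 3297 reads and is a change of -45.5%. Only 1.33% of the 8886 genes that reach log2 8 in both libraries, called well-covered genes from here on, had a lower log2 fold change. Tcf7 (chr11:52252371-52283014) went from 15.66 to 15.05, a difference of -0.610 (-0.629 to -0.591) or -34.5%, and 5.45% of those genes had a lower one. Lef1 (chr3:131110471-131224356), the partner of TCF-1 on the same motif, was at 15.85 and 15.41 with a difference of -0.438 (-0.456 to -0.420). For Lef1 that share of genes was 12.1%.

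Bach2 (chr4:32238804-32586108), a repressor that competes with AP-1 factors, had log2 values of 13.19 and 12.79. Its difference of -0.396 (-0.440 to -0.352) is a change of -24.0%. Foxo1 (chr3:52268336-52353221), the forkhead factor that AKT holds in the cytoplasm, was at 12.42 in the WT library and 12.22 in the KO library, lower by less than Bach2 with a difference of -0.198 (-0.253 to -0.143). Satb1 (chr17:51736187-51833290), the chromatin organiser, was nearly level at 17.54 and 17.56. At 196396 and 200104 reads its difference of 0.024 had a narrow counting interval that leaves out 0 (0.0150 to 0.0330). Lef1, Foxo1 and Bach2 share 1208, 674 and 537 exon bases with the annotated antisense genes Gm43352, Gm20402 and Bach2os. Whether strand was used in the counting is not given in the sources used here, so reads of these antisense genes could be counted in the values.

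Of the 9 genes, 7 were lower and 2 were higher, with a median log2 fold change of -0.198. The split was 6 and 3 with scaling to Actb or to the total without ribosomal RNA precursor, 5 and 4 with scaling to T cell identity genes, and 9 and 0 with the trend described below removed. Over the 8886 well-covered genes, to which all 9 belong, the median was -0.011 and 51.2% were lower as deposited. Their median was 0.105 with scaling to Actb, 0.130 to the total without ribosomal RNA precursor and 0.179 to T cell identity genes. With the trend removed it was 0 by construction. The share of these genes that was lower was not computed in those settings. None of the 9 genes was past 2-fold, where 0 were at least 2-fold lower and 0 at least 2-fold higher. Over all 24421 genes, 5.81% were at least 2-fold lower and 4.7% at least 2-fold higher, many of them genes with few reads, and among the well-covered genes these shares were 0.743% and 0.461%. A 2-fold difference was thus uncommon at the depth of these genes. At a line of 1.5-fold, 2 of the 9 genes were lower (Klf2 and Tcf7) and 0 were higher, beside 6.29% of the 8886 genes lower and 3.95% higher. With 9 genes these counts are a description, and no share is particular to the group. The plot of the 9 changes shows Klf2, Tcf7, Lef1, Bach2 and Foxo1 on the lower side under each alternative tried, Foxo1 with values up to -0.00804.

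**Figure D2:**
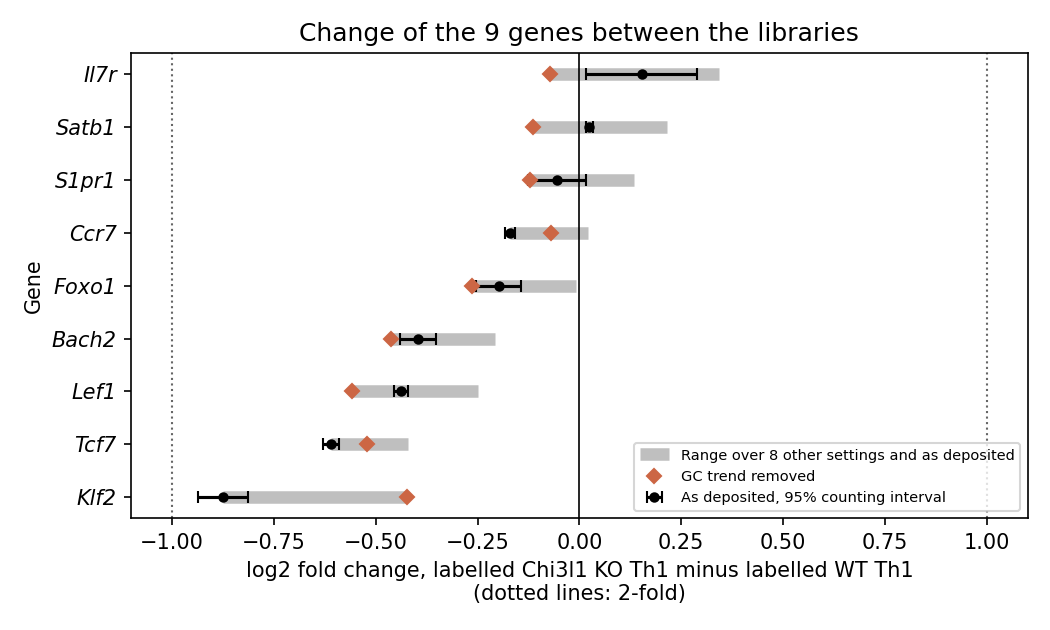
The log2 fold change of each of the 9 genes, labelled KO minus labelled WT, as deposited (black point with its 95% counting interval), with the GC trend removed (diamond) and over all settings tried (grey bar), with dotted lines at 2-fold. Klf2, Tcf7, Lef1, Foxo1 and Bach2 stay below 0 in every setting, whereas the bars of Ccr7, S1pr1, Il7r and Satb1 cross it.

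Base composition moved with the changes between the libraries. Across 8579 genes of that depth with an annotated transcript, the log2 fold change was lower at higher GC content of the transcript (Spearman rho of -0.525 across genes, which are not independent replicates), and over 20 GC bins the bin median went down from 0.229 to -0.453. Klf2, at 61.6% GC, lies in the highest bin, and Il7r, at 40.5%, lies in a bin with a median of 0.224. With the median of its GC bin subtracted, the difference of Klf2 was -0.422 in place of -0.875, and the share of genes below it was 7.90% of those 8579 in place of 1.33%. Tcf7 (52.3% GC) moved little, to -0.521. Lef1, at 46.1% GC, moved the other way, from -0.438 to -0.558, and was then the lowest of the 9 genes, with 3.80% of the 8579 genes below it. Bach2 was at -0.462, Foxo1 at -0.264, S1pr1 at -0.122 and Ccr7 at -0.069. Il7r and Satb1, the 2 genes that were higher as deposited, became -0.071 and -0.115. All 9 genes were then lower, with a median of -0.264 beside 0 for the well-covered genes, and 0 of them reached 1.5-fold. The shares of the 8579 genes that were lower or past 1.5-fold in this form were not computed. The length of the transcript moved little with the changes (rho of 0.0431 across the same genes). The part of GC content in the difference of any gene was not tested, and with 1 library per genotype it cannot be told apart from genotype.

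**Figure D3:**
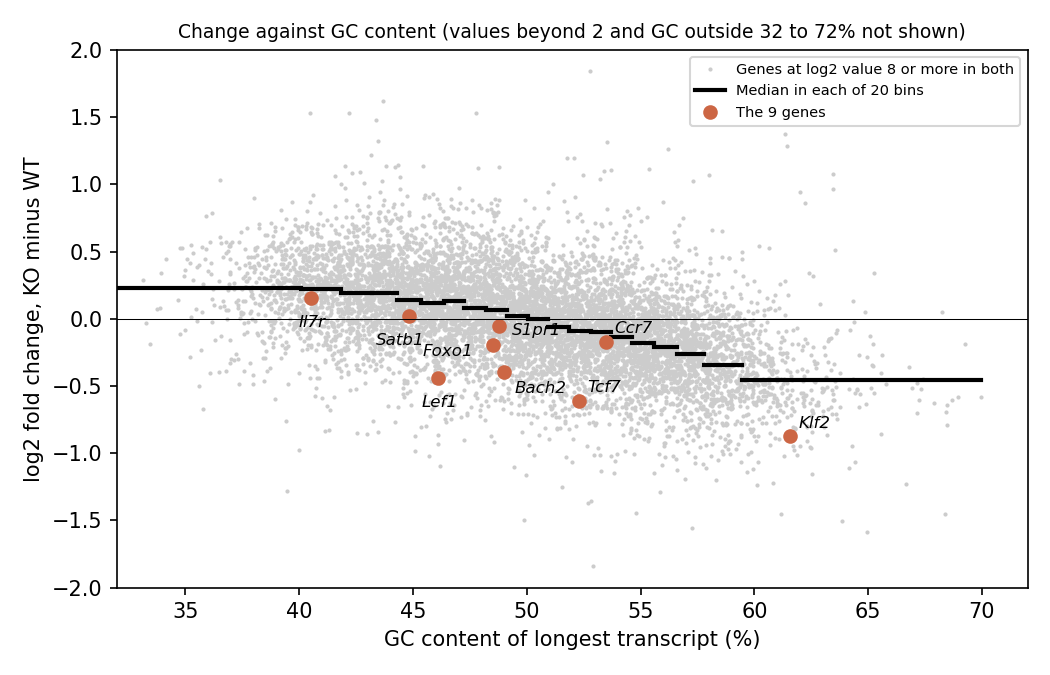
The log2 fold change (labelled KO minus labelled WT) against the GC content in percent of the longest transcript, for the well-covered genes (grey), the median in each of 20 GC bins (black lines) and the 9 genes (coloured, named). The medians descend from 0.229 to -0.453, and each of the 9 genes lies below the line of its bin, Lef1 and Tcf7 by the most.

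Within their families the 9 genes were mostly the leading members. Tcf7 and Lef1 together held nearly all of the TCF/LEF family per kb, with 55.9% and 43.1% in the WT library and 53.0% and 46.1% in the KO library. With the union of exons as the length the shares were 73.8% and 25.1% in the WT library and 71.6% and 27.5% in the KO library. Bach2 held 93.8% and 92.4% beside Bach1. Foxo1 took 53.9% of the FOXO family in the WT library and 52.8% in the KO library, followed by Foxo3 with 25.2% and 28.1%. Of the 5 families drawn, the KLF family changed its makeup most in the deposited values. Klf2 held 46.4% of the summed count per kb of the 17 KLF genes in the WT library and 34.5% in the KO library, while Klf6, a factor induced by injury and activation signals, held 9.35% and 19.5%. Among the sphingosine 1-phosphate receptors S1pr4, another lymphocyte receptor, was above S1pr1, with 57.1% and 50.05% of the summed count per kb against 38.3% and 46.1%. The bars of family shares show Klf2 as the member with the largest loss of share. All these shares are of deposited values and were not computed with the GC trend removed. The log2 fold change was then -0.422 for Klf2 and 0.423 for Klf6, and -0.168 for S1pr4 and -0.122 for S1pr1.

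**Figure D4:**
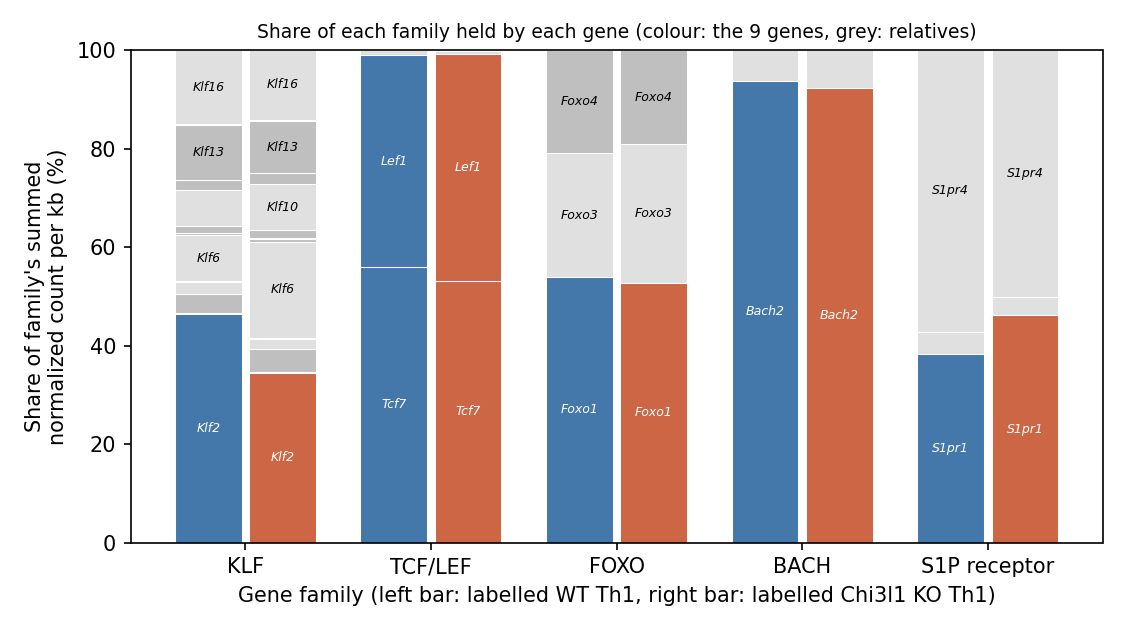
Share in percent of each gene in the summed normalized count per kb of its family, with the library labelled WT Th1 as the left bar and the library labelled Chi3l1 KO Th1 as the right bar of each pair (colour for the 9 genes, grey for their relatives, 1 library per bar). Klf2 takes 46.4% of the KLF family in the WT library and 34.5% in the KO library, whereas Bach2 fills over 90% of its family in both. Shares are of deposited values, with the GC trend left in.

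The ligands and partners of the receptors were read from lists of known pathway genes, counted over genes above the floor in at least 1 library. For CCR7, the ligand genes Ccl19 and Ccl21a were listed at 0 in both libraries. Of 10 detected homing and egress receptors 4 were higher and 6 lower, with a median log2 fold change of -0.08. The 2 past 2-fold were both higher, namely Ccr6, a receptor of Th17 and regulatory T cells and of B cells (42 and 124 reads, 1.54), and Cxcr5, the receptor for B cell follicles (292 and 616 reads, 1.07). Cxcr4, the receptor for CXCL12, was lower at 888 and 467 reads (-0.929), and the integrin genes Itgb7 (-0.376) and Itgal (-0.189), the latter the most abundant of the list per kb, were lower by less. Once the GC trend was removed 2 were higher and 8 lower, Cxcr4 (-1.05) and Ccr9 (13 and 7 reads, named because of its value) passed 2-fold lower, and Itgb7 was near level (-0.030). Ccr7 differed by less than Ccr6, Cxcr5 and Cxcr4 in both forms, and by less than Itgb7 as deposited only. These 4 genes were named for the size of their change. Other detected genes of the list, not named by that rule, differed by less than Ccr7 as deposited.

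In the sphingosine 1-phosphate pathway 8 of 10 detected genes were lower and 2 higher, with a median of -0.448, and -0.281 with the GC trend removed. The kinases that make the lipid were among them, Sphk1 with 138 and 42 reads (-1.70) and Sphk2 with 7565 and 5054 reads (-0.585). The receptors S1pr2 (-0.561) and S1pr4 (-0.514) were lower as well, and the most abundant gene of the list, Gnai2, which encodes the G protein subunit of these receptors, differed by -0.267. Spns2, a transporter of the lipid, was past 2-fold too, on 31 reads and 1 read, a gene named here because of its value. With S1pr1 at -0.056, the receptor of egress was nearer to level than S1pr2 or S1pr4 as deposited, though with the GC trend removed S1pr4 (-0.168) lay close to S1pr1 (-0.122).

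For the IL-7 receptor, Il7 and Tslp were at 0 in both libraries, and 3 of 8 detected genes were higher and 5 lower, with a median of -0.235. The common gamma chain gene Il2rg, with which IL-7R alpha pairs, was at 15.69 and 15.25 (-0.443), and per kb it was 141 times Il7r in the WT library and 93.1 times in the KO library. Crlf2, which pairs with IL-7R alpha to bind TSLP, differed by -0.857, the feedback inhibitor gene Cish by -0.453 and the kinase gene Jak3 by -0.449. With the GC trend removed Jak3 was level (0.004), and the list was even, at 4 higher and 4 lower. Il7r was therefore the lowest of the chains in level and, as deposited but not with the GC trend removed, the chain that was higher in the KO library.

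Relatives and partners of the factors were counted in the same way. Of the 14 other KLF genes detected 11 were lower and 3 higher, with a median of -0.203. Klf6 was higher (2780 and 4264 reads, 0.614), whereas Klf4, a factor of quiescence (-0.666), Klf16 (-0.533) and Klf13 (-0.525) were lower with Klf2. Klf14, with 14 and 33 reads, and Klf12, with 11 and 0 reads, were past 2-fold and are named because of their values. With the GC trend removed Klf16 was near level (-0.080), Klf4 stood at -0.533 and Klf6 at 0.423.

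Among 13 relatives and cofactors of TCF-1 and LEF-1, 6 were higher and 7 lower, with a median of -0.138. Tcf7l2, a TCF gene of low level in these cells, had 41 and 132 reads (1.66), and Tcf7l1 had 1175 and 617 reads (-0.930). Axin2, a feedback target of the beta-catenin pathway, was lower at 869 and 519 reads (-0.745), as was Tle2, a Groucho corepressor, at 119 and 51 reads (-1.21). Aes, a short Groucho relative and the most abundant of the list per kb, differed by -0.397. After removal of the GC trend 5 were higher and 8 lower, with a median of -0.024, and Tle2 (-0.863) was not past 2-fold. Per kb Tcf7 was 1.30 times Lef1 in the WT library and 1.15 times in the KO library, and 2.93 and 2.60 times with the union of exons as the length.

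The 17 detected genes of the FOXO family and of PI3K and AKT signalling were split, with 8 higher and 9 lower and a median of -0.015, and with 11 higher and 6 lower and a median of 0.086 once the GC trend was removed. Sgk1, a kinase that phosphorylates FOXO factors, was higher at 1268 and 2354 reads (0.889), and Rictor, a subunit of mTORC2, was higher at 1023 and 1534 reads (0.582). Inpp5d (-0.355), which encodes the lipid phosphatase SHIP-1, and Rptor (-0.312), which encodes a subunit of mTORC1, were lower. Pik3cd, the most abundant of the list per kb, was at 17.89 and 17.76 (-0.129). Of 12 known FOXO targets other than the 9 genes, 7 were higher and 5 lower with a median of 0.087, which turned to 5 higher, 7 lower and -0.050 with the GC trend removed. Klhl24 (0.784), Gadd45a (0.782) and Bcl2l11 (0.441), the last the gene of the death factor BIM, were higher, Irs2 was lower (-0.358) and Txnip, the most abundant, differed by 0.089. Klf2, itself a FOXO1 target, was lower and Il7r, another, was higher as deposited, so these targets did not share a direction in the deposited values, while both were lower with the GC trend removed.

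For BACH2, 4 of 10 partners and antagonists were higher and 6 lower, with a median of -0.089. The AP-1 genes Jund (16.15 and 15.45, -0.704) and Junb (14.07 and 13.37, -0.700) had larger differences than Bach2 as deposited. The order was reversed by removal of the GC trend, with Jund at -0.251 and Junb at -0.247 against -0.462 for Bach2, and of the list 5 were higher and 4 lower. Nfe2l2 (-0.279), the gene of the stress factor NRF2, and Maff (-0.259), a small MAF partner, were lower by less. Of the CUT homeobox relatives of SATB1, Cux1 was lower at 27013 and 17945 reads (-0.593), and Cux2 and Onecut2 were listed at 0.

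How far each culture stood from the naive state was described by the levels beside lists of 24 other naive state genes, 22 activated and effector genes and 10 T cell identity genes. The median percentile per kb of the 9 genes was 90.8 in the WT library and 85.5 in the KO library, in both the value of Klf2. The other genes moved by less, from Bach2 (78.4 and 74.2) to Ccr7 (99.4 and 99.4). Il7r (53.0 and 54.3) and Satb1 (99.0 and 99.1) rose. The median percentile was 87.8 and 87.5 for the naive list, 91.3 and 91.7 for the effector list and 97.1 and 96.4 for the T cell identity list. The median percentiles of the naive and effector lists thus lay within a few points of each other in both cultures. Per kb Tcf7 was 3.22 times Tbx21, the gene of the Th1 factor T-bet, in the WT library and 2.53 times in the KO library. On the other side, Il2ra, the IL-2 receptor chain induced on activation, was 58.4 times Il7r in the WT library and 62.3 times in the KO library. These pairs were picked after their values were seen.

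Of the 24 other naive state genes 19 were lower and 5 higher, with a median of -0.173, and 0 were past 2-fold. Pdlim1, a cytoskeletal adaptor gene, was at 13.57 and 12.72 (-0.854), Igfbp4, which encodes a binding protein of insulin-like growth factors, at 15.51 and 14.76 (-0.746), and Ltb, the gene of lymphotoxin beta, at 13.73 and 13.10 (-0.632). Pecam1, an adhesion receptor gene, differed by -0.430, and Ikzf1, the gene of the lymphoid factor Ikaros and the most abundant of the list, by -0.201. With the GC trend removed 21 were lower and 3 higher, the median was -0.180, Pdlim1 passed 2-fold (-1.05) and Ltb moved to -0.179. Their median of -0.173 lay near the -0.198 of the 9 genes, and both lie inside the range from -0.255 to 0.216 that holds the middle of the 8886 genes between the quartiles.

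Of the 22 activated and effector genes 15 were higher and 7 lower, with a median of 0.0765. Ifng, the signature cytokine gene of Th1 cells, was past 2-fold higher at 11.72 and 13.04 (1.32), and Cxcr3, a chemokine receptor gene of Th1 cells, was past 2-fold lower at 8.05 and 6.82 (-1.23). Prdm1, which encodes Blimp-1, a factor that opposes the naive and memory program and that BACH2 represses, was at 371 and 650 reads (0.804), and Zeb2, a factor gene of terminal effector cells, at 358 and 555 reads (0.628). Myc, the most abundant of the list, differed by -0.123. Per kb, Tcf7 was 308 times Prdm1 in the WT library and 115 times in the KO library, Lef1 237 and 100.1 times (104 and 44.01 times with the union of exons), and Bach2 15.4 and 6.71 times, pairs also picked after their values were seen. With the GC trend removed the list was even, at 11 higher and 11 lower with a median of 0.0188, while Prdm1 stayed at 0.684, Ifng at 1.13 and Cxcr3 at -1.097. The plot of changes by list shows the 9 genes and the other naive genes centred below zero and the effector genes just above it, with wide overlap.

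**Figure D5:**
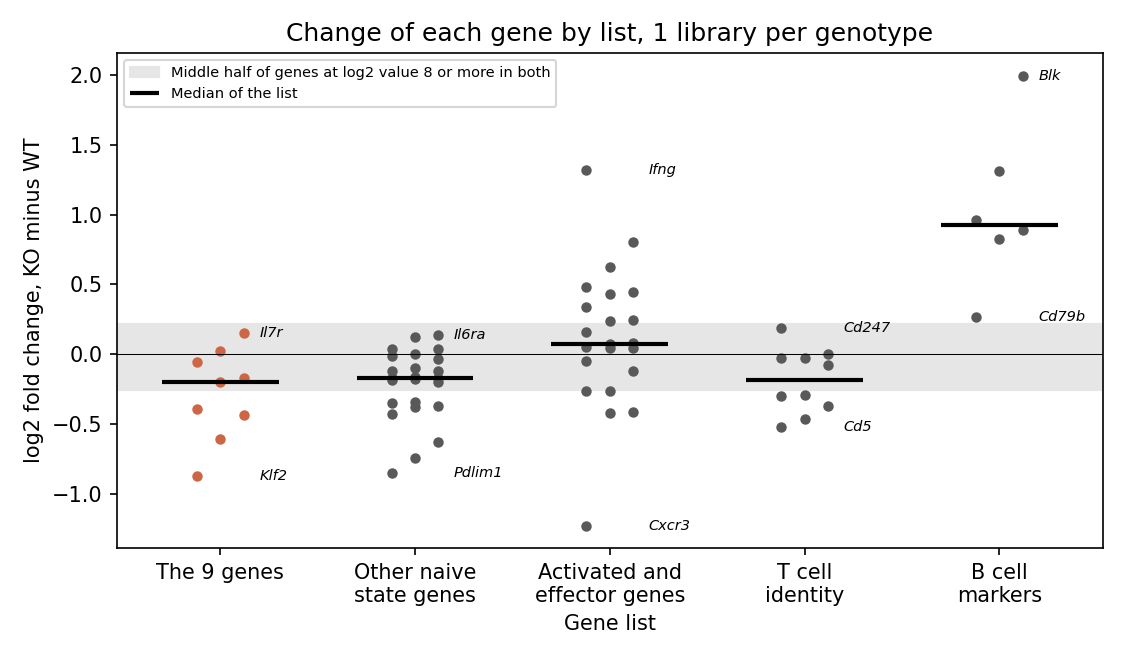
The log2 fold change (labelled KO minus labelled WT, 1 library each) of every gene in 5 lists, each point a gene, with the list median as a black line and the range between the quartiles of the 8886 well-covered genes shaded. The medians are -0.198 for the 9 genes, -0.173 for other naive state genes, 0.0765 for effector genes, -0.185 for T cell identity genes and 0.926 for B cell markers.

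Markers of the labelled cell type were present throughout, and T cell identity genes were abundant, led by Lck, which was nearly level (16.49 and 16.48). Of the 10 genes 9 were lower with a median of -0.185, most of all Cd5 (-0.525), Thy1 (-0.468), Cd4 (-0.374) and Lat (-0.298). Cd3g (-0.292), Cd3e (-0.078), Cd3d (-0.025) and Cd28 (-0.025) were lower by less, and Cd247 was higher (0.187), genes named for their values. The size of the change thus differed widely within the list. With the GC trend removed 8 were lower and 2 higher, with a median of -0.233. The deposited median of -0.185 is close to the -0.198 of the 9 genes, and in bulk RNA fewer cells of a type and less RNA per cell cannot be told apart. Markers of B cells, which also express Ccr7, Klf2, S1pr1, Foxo1 and Bach2, were higher for 6 of 6 genes, with 988 and 1865 reads in sum, among them Pax5, a B cell factor gene, with 95 and 178 reads. Summed per kb, the B cell list was at 489 in the WT library and 852 in the KO library, against 54840 and 48744 for Ccr7 alone and 226 and 251 for Il7r alone. For regulatory T cells, Foxp3 (2029 and 3359 reads, 0.724) and Ikzf2 (167 and 316 reads, 0.910) were higher, and Tnfrsf18, which activated T cells also express, was near level as deposited (-0.054). With the GC trend removed all 3 were higher, with a median of 0.681, and the 6 B cell markers stayed higher, with a median of 0.949. The CD8 markers summed to 840 and 836 reads, with Cd8a higher (0.598) and Cd8b1 lower (-0.473). Markers of monocytes and macrophages summed to 710 and 571 reads with Adgre1 at 0 in both, those of dendritic cells to 76 and 126 reads with Siglech and Clec9a at 0, and those of neutrophils to 60 and 5 reads. The NK cell list summed to 2143 and 2801 reads, of which Eomes, also a T cell factor, gave 2115 and 2747, and the stromal list consisted mostly of Pecam1 reads with Lyve1 at 0. Isolation as CD4+CD25- cells is meant to leave out B cells, CD8 cells and most regulatory T cells, and the paper reports a purity short of complete for the kit. The part of any of these cell types in the values of the 9 genes was not tested. The 9 genes lie on 6 chromosomes, and none lies on chromosome 1 with Chi3l1.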

How the data were processed

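The authors prepared libraries from polyadenylated RNA, sequenced them in paired ends, mapped the reads with TopHat, counted unique and multiple alignments and used edgeR with a global normalization. The build mm10 is given in the submitters' processing notes, and the annotation and the strand of counting are not given in the sources used here. The deposited values are log2 values, taken to be log2(normalized count + 1), a unit inferred from the values: of low values up to 20, 99.96% in the WT library and 99.78% in the KO library were within 0.1 of a whole number of reads. Reads were rebuilt by rounding, and reads with several alignments may be counted on more than 1 gene.

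The log2 fold change is the KO value minus the WT value, without a filter and with the pseudocount of 1 already inside the log, which understates changes of low genes. No test was possible with 1 sample per genotype, and the 95% intervals come from the rebuilt reads. Transcript length, GC content and gene positions came from the GENCODE M21 annotation of GRCm38, where 96.0% of symbols at a log2 value of 1 or more in either library were found. The GC trend was the median in 20 bins over the genes that reach log2 8 in both libraries. Named genes were the 9 genes, and from each list the 4 with the largest change among genes that reach log2 6 in either library, plus the most abundant per kb. Others are said to be named for their values. The 9 genes and all lists were chosen with earlier results of these data known. A few genes of the lists are not reported here by name. Ly6g, of the neutrophil markers, was not among the symbols. Alternatives were a pseudocount of 0.1, 5 other scalings, removal of a GC or length trend, and fold lines of 1.5 and 3. The scripts, in Python 3.11.15 with pandas 2.3.3, numpy 2.4.6, matplotlib 3.10.9 and scipy 1.17.1, were tested on simulated data.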

Additional observations from a re-analysis of the deposited data

How the results depend on the processing

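With 1 library per genotype there is no replicate check, and leaving out a library leaves no comparison. No paired analysis was possible because each genotype has 1 sample. Among the 9 genes, 0 were past 2-fold in either direction under every scaling, pseudocount, trend removal and the 3-fold line tried, and the 1.5-fold line gave 2 lower. The median log2 fold change of the 9 genes, -0.198 as deposited, was -0.0820 with scaling to Actb, -0.00804 with scaling to the T cell identity genes, -0.0567 with scaling to the total without Rn45s, the ribosomal RNA precursor that held 2.83% of counts in the WT library and 1.0% in the KO library, and -0.264 with the GC trend removed. These 3 scalings moved the median of the 8886 well-covered genes to 0.105, 0.179 and 0.130, and as each applies 1 factor per library the differences relative to that median did not move. Of 72 values of single genes under the alternatives, 28 lay within the counting interval and 6 changed sign: Ccr7 to 0.0200 with the T cell identity genes, S1pr1 to 0.0600 with Actb, 0.134 with the T cell identity genes and 0.0853 without Rn45s, and Il7r to -0.071 and Satb1 to -0.115 with the GC trend removed. Klf2 ranged from -0.875 to -0.422, Tcf7 from -0.610 to -0.420, Lef1 from -0.558 to -0.248, Bach2 from -0.462 to -0.206 and Foxo1 from -0.264 to -0.00804. The lowest count among the 9 genes was 826 reads, and S1pr1 was the gene whose difference its depth could not resolve.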
